A study of Mus musculus with 4 samples.

Results

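Heme biosynthesis is described here through 9 genes, Alas2, Alad, Uros, Urod, Cpox, Ppox, Fech, Tmem14c and Slc25a38, picked by symbol from the array's annotation. Each had 1 probe set, so the 9 genes are 9 of the 23185 probe sets with a gene symbol and of 25206 probe sets in all. The RNA came from E14.5 mouse fetal liver cells that magnetic beads had selected for Ter119, which marks the surface of red cell precursors. One group of 2 biological replicates is RNA precipitated with an antibody against Cpeb4 (the IP), an RNA-binding protein that recognises cytoplasmic polyadenylation elements in mRNA. A second group is 1 array of RNA precipitated with rabbit IgG, the measure of unspecific carry-over, and the third is 1 array of total input RNA with no antibody. The labels give no genotype, strain or treatment beyond this, and do not say which cell preparation the control arrays came from. The study looked for mRNAs bound to Cpeb4, and the comparisons it implies are those of the IP with each control.

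Heme is the iron-containing ring that binds oxygen in hemoglobin, and erythroblasts make it in large amounts. Synthesis starts inside the mitochondrion, moves to the cytosol for its middle steps and returns to the mitochondrion to be finished. Alas2, the erythroid 5-aminolevulinate synthase, joins glycine to succinyl-CoA in the mitochondrial matrix, and Slc25a38 is a carrier of the inner mitochondrial membrane that brings in the glycine. Alad, Uros and Urod then work in the cytosol, Cpox and Ppox oxidise the ring precursor at the mitochondrion, Tmem14c helps the precursor into the matrix, and Fech inserts the iron. The list thus holds 7 enzymes and 2 transport proteins, with 3 of the proteins cytosolic and 6 mitochondrial. The enzyme between Alad and Uros was not analysed here.

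The RNA of Ppox was lower in the IP than in both controls, and in the values as deposited no heme gene was at least 2-fold higher in both IP replicates than either control. The genes fell into 4 patterns. Alas2 and Fech were nearly level over the 4 arrays in the values as deposited. Alad, Uros, Urod and Slc25a38 were lower in the IP and in the IgG precipitate than in input, with IP and IgG close to each other in the values as deposited. Cpox and Tmem14c were higher in the IP than in IgG and close to input. Ppox alone was lower in the IP than in both controls by the test. The IgG and IP arrays measured precipitated RNA, so a difference from them is not a change of RNA level in the cells. On any of the arrays, fewer cells of a type and less RNA per cell cannot be told apart.

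All values are the authors' deposited expression values on the log2 scale, where 1 unit is a 2-fold difference, and a gene is compared with itself on the other arrays, apart from the gaps between pathway neighbours given below. Differences were tested with limma over 13911 genes whose mean over the 4 arrays reached a log2 value of 3.844. All 9 heme genes were among them. A gene "rose" or "fell" when its Benjamini-Hochberg adjusted p was below 0.05. Both controls are single arrays, so the spread in the test came from the 2 IP replicates, and each control was assumed to vary like them.

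Over the whole series, values were more compressed on the IgG array, with an SD over its probe sets of 1.74, against 2.05 to 2.13 on the other arrays. Of the erythroblast markers, 8 of 10 had a named probe set, and their log2 values on the input array ran from 9.48 for Epor to 12.20 for Slc4a1, so markers of the labelled cell type were present. The summed level of markers of other liver cells was highest in the IP. Single markers could differ from their sum: C1qa, C1qb, Vcam1 and Cd5l of macrophages and S100a9 of neutrophils were highest in IgG. The log2 of the summed linear values of 7 neutrophil markers was 9.39 in input, 10.73 in IgG and 11.34 and 11.33 in the IP replicates. For 6 megakaryocyte markers it was 9.93, 10.85, 11.69 and 11.80, for 9 hepatocyte markers 7.27, 8.14, 9.23 and 9.42, and for 8 macrophage markers 7.49, 7.98, 8.67 and 8.90. For the 8 erythroblast markers it was 14.12, 13.65, 13.80 and 13.82. Against input, 6 of the 7 neutrophil, 5 of the 6 megakaryocyte, 5 of the 7 tested hepatocyte and 5 of the 7 tested macrophage markers rose, while 4 of the 8 erythroblast markers fell. Against IgG 4 of the 7 neutrophil, 4 of the 6 megakaryocyte and 4 of the 7 tested hepatocyte markers rose and none fell, 3 of the 7 tested macrophage markers rose and 1 fell, and 1 of the 8 erythroblast markers fell. None of these markers is a heme gene, and their part in the results below was not tested.

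**Figure D1:**
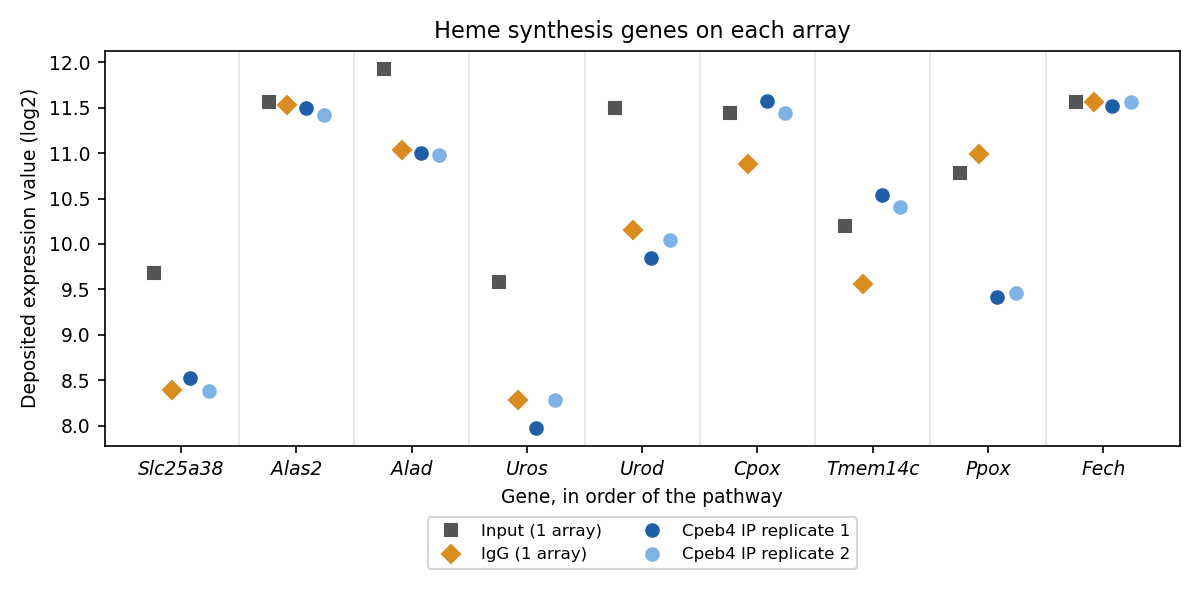
Deposited log2 expression value of each heme gene (horizontal axis, in order of the pathway) on the input array, the IgG array and the 2 Cpeb4 IP arrays. Alas2 and Fech sit level, Alad, Uros, Urod and Slc25a38 are highest on input, and Ppox is lowest on both IP arrays at 9.41 and 9.46.

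Ppox, protoporphyrinogen oxidase, carries out the step before iron is inserted. Its value was 10.78 in input, 10.99 in IgG, and 9.41 and 9.46 in IP replicates 1 and 2. Both IP arrays lay below both controls, by many times the gap of 0.05 between the replicates. Here and for the genes below, the gap between the IP replicates does not measure how a single control array would vary. The IP mean was 9.44 ± 0.04 (SD, n = 2), which is 2.93-fold below IgG and 2.54-fold below input. Ppox fell by 1.55 against IgG (SE 0.12, limma adjusted p = 0.00201) and fell by 1.34 against input (SE 0.12, limma adjusted p = 0.00995). Only 2.37% of tested genes had a lower difference from IgG, and 2.60% a lower difference from input. Ppox was also the 1 heme gene with a higher deposited value in IgG than in input, by 0.21, a difference that was -0.15 after each array was centred on its median. At least 2-fold below both controls in both replicates were 0.503% of tested genes, and 1 of the 9 heme genes, Ppox. By the limma test 2.24% of tested genes fell against both controls and 7.44% rose against both, and among the heme genes Ppox fell and none rose. At any size, both IP replicates lay under both controls in 11.9% of tested genes and in 4 of the 9 heme genes (Alad, Alas2, Ppox and Urod). That count was 1, Ppox, after centring on array medians and 5 after quantile normalization again. The comparisons with IgG and with input share the IP arrays and are not independent of each other.

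Cpox, coproporphyrinogen oxidase, makes the compound that Ppox uses, and its RNA stood above IgG. Its value was 11.44 in input, 10.88 in IgG, and 11.57 and 11.44 in the IP replicates. The IP arrays lay above IgG by more than the gap of 0.13 between them, while replicate 2 was level with input. Cpox rose by 0.63 against IgG (1.54-fold, SE 0.13, limma adjusted p = 0.0182). Of the tested genes, 69.5% had a lower difference from IgG. The median difference from IgG was also 0.63 among the 1107 tested genes with mean levels between those of Uros and Fech. The difference of Cpox from input was 0.07 and did not pass (limma adjusted p = 0.835). In the usual eBayes form of limma, the rise over IgG did not pass (limma adjusted p = 0.0863).

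Tmem14c, which helps the porphyrin precursor into the mitochondrial matrix, had the largest rise over IgG among the 9 genes. Its value was 10.20 in input, 9.56 in IgG, and 10.53 and 10.40 in the IP replicates. Both IP arrays were above both controls, which also held for Cpox, so for 2 of the 9 heme genes (1, Tmem14c, after centring), and for 20.5% of tested genes. Tmem14c rose by 0.91 against IgG (1.88-fold, SE 0.13, limma adjusted p = 0.00675), in both replicates (0.98 and 0.85). Against input its difference of 0.27 missed the threshold (limma adjusted p = 0.232), though it passed with an intensity trend in the prior (limma adjusted p = 0.0443) and with a common spread (adjusted p = 0.00339). The rise over IgG did not pass in the usual eBayes form (limma adjusted p = 0.0587). A lower difference from IgG than that of Tmem14c was seen in 77.6% of tested genes. Among the 1107 tested genes with mean levels between those of Uros and Fech, 60.7% rose over IgG, at a median difference of 0.63. Tmem14a, a relative of Tmem14c, had values of 3.46 to 4.09 and a mean below the level needed for testing.

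Ppox can be set against its pathway neighbours within each array, where a factor common to a whole array drops out. Ppox minus Cpox was -0.66 in input, 0.11 in IgG, and -2.16 and -1.98 in the IP replicates. The gap was thus wider in both IP arrays than in either control, with a mean shift of -1.41 from input and -2.18 from IgG. Fech minus Ppox was 0.78 in input, 0.57 in IgG, and 2.11 and 2.10 in the IP replicates. These gaps have no test of their own, and they show unequal differences between the genes, not which of the pair moved. Tmem14c minus Cpox stayed between -1.32 and -1.04 on the 4 arrays, so these genes kept nearly the same gap.

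The upstream DNA of Cpox and Ppox is shown because these adjacent steps of the pathway stood on opposite sides of IgG, with that of Alas2, the erythroid enzyme at the start, beside them. The sequences are the 250 bases before each gene's start in RefSeq (GRCm38.p6), 5′ to 3′ on the strand of the gene. Capitals mark GATA motifs, the letters bound by the erythroid factor Gata1.
Alas2, chrX:150547167-150547416, + strand: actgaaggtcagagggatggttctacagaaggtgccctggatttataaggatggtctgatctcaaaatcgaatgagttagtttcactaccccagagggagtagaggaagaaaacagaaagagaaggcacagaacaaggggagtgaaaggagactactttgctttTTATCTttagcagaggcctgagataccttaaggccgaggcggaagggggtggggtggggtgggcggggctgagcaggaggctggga
Cpox, chr16:58669958-58670207, + strand: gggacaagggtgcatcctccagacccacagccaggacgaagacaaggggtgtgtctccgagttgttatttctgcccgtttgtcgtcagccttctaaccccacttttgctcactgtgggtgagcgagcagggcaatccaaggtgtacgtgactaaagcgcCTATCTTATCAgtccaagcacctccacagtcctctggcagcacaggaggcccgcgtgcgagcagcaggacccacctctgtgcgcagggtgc
Ppox, chr1:171281187-171281436, - strand: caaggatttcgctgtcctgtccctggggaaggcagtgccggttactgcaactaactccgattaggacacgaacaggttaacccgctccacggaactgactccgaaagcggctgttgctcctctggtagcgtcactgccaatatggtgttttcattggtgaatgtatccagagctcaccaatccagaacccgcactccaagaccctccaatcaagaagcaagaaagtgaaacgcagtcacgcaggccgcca

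The 4 motifs searched, on both strands, were the letters GATA preceded by A or T and followed by A or G. Alas2 had 1 match, starting 86 bases before the gene's start. Cpox had 2 matches that overlap by 1 base, starting 91 and 86 bases before it. Ppox had none in this window, and Tmem14c, which rose over IgG as Cpox did, had none in its own. Of the 8 heme genes with a RefSeq window, Alas2, Cpox and Uros had a match, the last in 1 of its 2 windows. Among all 32817 windows, 26.6% held at least 1 match, against 3 of the 10 windows of heme genes, so the share was near that of all windows. A match describes the letters only, and the arrays measured RNA, not binding at these windows.

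**Figure D2:**
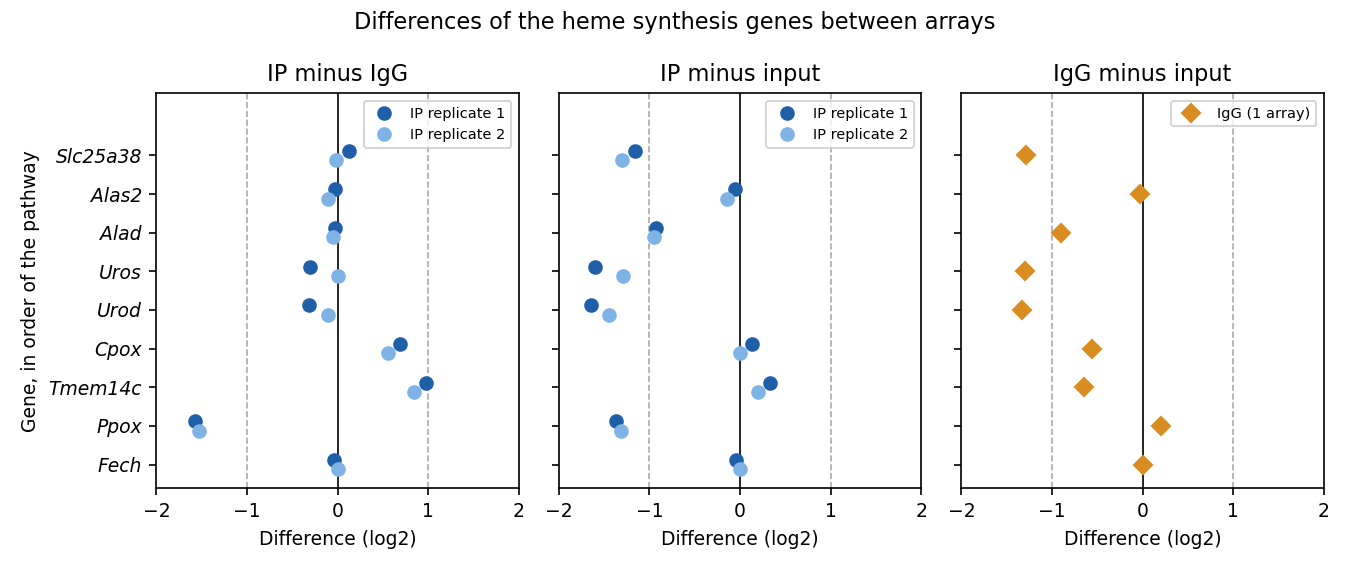
Log2 difference of each heme gene for each IP replicate against IgG (left), each IP replicate against input (middle) and IgG against input (right), with dashed lines at 2-fold. Ppox lies past the left dashed line against both controls, while Uros, Urod and Slc25a38 do so against input in the IP and in IgG alike.

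The cytosolic enzymes were lower in both kinds of precipitate than in input. Alad, the aminolevulinate dehydratase, had a value of 11.93 in input, 11.03 in IgG, and 11.00 and 10.98 in the IP replicates. Input stood apart, and the other 3 arrays lay within 0.05 of each other. Alad fell by 0.94 against input (1.91-fold lower, SE 0.12, limma adjusted p = 0.0139) and differed by -0.04 from IgG (limma adjusted p = 0.813). After each array was centred on its median, Alad was instead 0.28 higher than IgG (limma adjusted p = 0.0406).

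Uros, uroporphyrinogen III synthase, closes the ring. Its value was 9.58 in input, 8.29 in IgG, and 7.98 and 8.29 in the IP replicates. IP replicate 2 and IgG were exactly equal, which can happen when probes are summarised by RMA, and the IP replicates were 0.31 apart, the widest gap among the 9 genes. Uros fell by 1.45 against input (2.73-fold lower, SE 0.18, limma adjusted p = 0.0134) and differed by -0.15 from IgG (limma adjusted p = 0.517). After quantile normalization again the difference from IgG was -0.81 and did not pass (limma adjusted p = 0.0579). The fall against input did not pass under that normalization (limma adjusted p = 0.0565) or in the usual eBayes form (limma adjusted p = 0.13).

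Urod, uroporphyrinogen decarboxylase, trims the side chains of the ring and was the heme gene furthest below input. Its value was 11.49 in input, 10.16 in IgG, and 9.84 and 10.05 in the IP replicates. Both IP arrays were below IgG as well, but by 0.32 and 0.11, against a gap of 0.21 between the replicates. Urod fell by 1.54 against input (2.92-fold lower, SE 0.15, limma adjusted p = 0.0104) and differed by -0.21 from IgG (limma adjusted p = 0.289). The difference from IgG passed with a common spread per level (adjusted p = 0.0159) and was -0.49 after quantile normalization again (limma adjusted p = 0.069), and the fall against input did not pass in the usual eBayes form (limma adjusted p = 0.0844).

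Slc25a38, the glycine carrier, whose protein is mitochondrial, had the same layout. Its value was 9.68 in input, 8.40 in IgG, and 8.52 and 8.38 in the IP replicates, which lay on either side of IgG. Slc25a38 fell by 1.23 against input (2.35-fold lower, SE 0.13, limma adjusted p = 0.0112) and differed by 0.06 from IgG (limma adjusted p = 0.773). After quantile normalization again its difference from IgG was -0.60 and passed (limma adjusted p = 0.039), so its place against IgG depended on the scaling. The fall against input did not pass in the usual eBayes form (limma adjusted p = 0.073).

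In the values as deposited, the gap of these 4 genes to input was about as wide in IgG as in the IP. IgG minus input was -0.90 for Alad, -1.30 for Uros, -1.33 for Urod and -1.29 for Slc25a38, each at most 0.21 from the mean IP difference for that gene. After quantile normalization again, IgG minus input was -0.56 for Uros, -1.03 for Urod and -0.56 for Slc25a38, where IP minus input was -1.38, -1.52 and -1.16, so for these 3 genes the gap was then narrower in IgG. For Alad it was -0.91 in IgG and -1.01 in the IP. With the deposited values, IgG and both IP replicates were at least 1.5-fold below input for these 4 of 9 heme genes and for 11.5% of all tested genes. Of the heme genes, 3 were at least 2-fold lower in IgG than in input (Uros, Urod and Slc25a38), and so were 23.9% of tested genes. None was 2-fold higher, against 7.93%. IgG and input are 1 array each, and this difference has no test.

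Alas2 and Fech, the enzymes at the start and the end of the pathway, barely differed between arrays in the values as deposited. Alas2 had 11.56 in input, 11.53 in IgG, and 11.50 and 11.42 in the IP replicates, a range of 0.14. Its differences were -0.07 from IgG (limma adjusted p = 0.693) and -0.10 from input (limma adjusted p = 0.693), with an SE of 0.12. Fech had 11.56 in input, IgG and IP replicate 2, which were exactly equal, and 11.52 in IP replicate 1. It differed by -0.02 from each control (limma adjusted p = 0.921 for IgG and 0.997 for input). After centring on the median, Fech was 0.30 higher than IgG and passed (limma adjusted p = 0.0338). Alas2 was then 0.26 higher than IgG and did not pass (limma adjusted p = 0.0741). With that centring, IgG minus input was -0.39 for Alas2 and -0.36 for Fech. Alas1, the synthase of non-erythroid cells, was equal on all 4 arrays at 5.85.

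Counted together against input, 5 heme genes fell (Alad, Ppox, Slc25a38, Urod and Uros) and none rose (limma, 0 also at an unadjusted p under 0.05). In the usual eBayes form 0 rose, while an intensity trend and a common spread each called 1, Tmem14c. Among all tested genes 15.9% fell and 10.2% rose. The median difference of the 9 genes was -0.94, where that of all tested genes was -0.01. For the 8 erythroblast markers the median difference from input was -0.51, and 3 of them were at least 2-fold lower in both replicates. At least 2-fold lower in both replicates were 4 heme genes, Ppox, Slc25a38, Urod and Uros, against 5.18% of tested genes, and none was 2-fold higher, against 4.04%. In the usual eBayes form 2 heme genes fell against input, Alad and Ppox. The 9 genes are not replicates of each other, so these counts describe the list.

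Against IgG, 2 heme genes rose (Cpox and Tmem14c) and 1 fell (Ppox), where 36.1% of all tested genes rose and 21.2% fell. The median difference of the 9 genes was -0.04, beside 0.08 for all tested genes. Genes at the levels of the heme genes mostly stood above IgG: of the 1107 tested genes with a mean level between that of Uros (8.53) and Fech (11.55), 60.7% rose and 8.67% fell, at a median difference of 0.63. Against input, 15.8% of these genes rose and 24% fell, and their median difference was -0.07. In both replicates, 0 of the 9 heme genes stood 2-fold or more over IgG (1, Tmem14c, after centring on array medians), against 18.6% of tested genes, and 1, Ppox, was 2-fold below it, against 6.24%. None was at least 2-fold above both controls, against 2.49%.

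**Figure D3:**
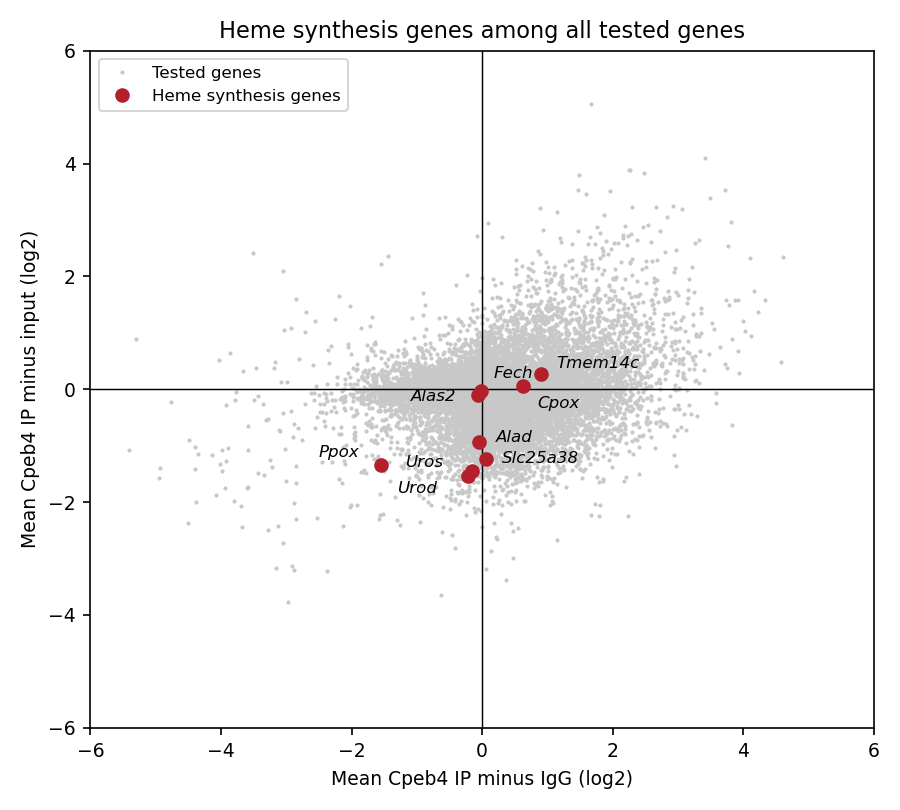
Mean log2 difference of the Cpeb4 IP from IgG (horizontal) and from input (vertical) for the 13911 tested genes (grey) and the 9 heme genes (red). The axes share the IP arrays. Ppox stands at -1.55 and -1.34, Urod, Uros, Slc25a38 and Alad form a column below 0 against input, and Cpox and Tmem14c lie to the right.

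The genes whose 4 values, each centred on its own mean, lay nearest to those of Ppox were Gm10536, Gpr52 and Hbq1a. Their Euclidean distances over the 4 arrays were 0.10, 0.22 and 0.22 log2 units. Hbq1a, a theta globin gene, had 9.02 in input, 9.53 in IgG, and 7.85 in both IP replicates. With 4 arrays in 3 groups few profiles are possible, so many genes can be near.

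Among the mitochondrial partners of heme synthesis, which carry iron, build iron-sulfur clusters or assist the enzymes, 18 of 20 listed genes had a named probe set and 17 were tested. Against IgG 10 rose and 2 fell, and against input none rose and 6 fell (limma, 1 higher at an unadjusted p under 0.05 and 2 in the usual eBayes form). Their median difference was 0.47 from IgG and -0.38 from input. Pgrmc1, a heme-binding membrane protein that interacts with Fech, had 7.89 in input, 6.92 in IgG, and 8.33 in both IP replicates. It rose by 1.41 against IgG (limma adjusted p = 0.00225). Against input it was 0.44 higher, which missed the threshold (limma adjusted p = 0.0646) but passed in the usual eBayes form (limma adjusted p = 0.0167). Fam210b, a mitochondrial protein of erythroid iron use, rose by 1.22 against IgG (limma adjusted p = 0.00417) and was 0.37 above input (limma adjusted p = 0.141). Its rise over IgG did not pass in the usual eBayes form (limma adjusted p = 0.061). At the low end, Tspo2, an erythroid relative of the translocator protein, fell by 0.57 against IgG and by 1.12 against input (limma adjusted p = 0.0239 and 0.0125). Fdx2, a ferredoxin of iron-sulfur cluster assembly, fell by 0.55 and by 1.10 (limma adjusted p = 0.0228 and 0.0121). Neither reached 2-fold below IgG. In the usual eBayes form neither passed against IgG (limma adjusted p = 0.0973 and 0.0718) or input (0.0769 and 0.0585).

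Flvcr1, which exports heme from the cell, stood furthest above both controls among the tested genes listed for heme export, breakdown and sensing. It had 6.24 in input, 5.52 in IgG, and 7.67 and 7.71 in the IP replicates. Both IP arrays were far above both controls. Flvcr1 rose by 2.17 against IgG (4.49-fold, limma adjusted p = 0.00159) and by 1.45 against input (2.73-fold, limma adjusted p = 0.00955). Its relative Flvcr2 was equal on all 4 arrays at 3.42 and was not tested. Of the list of 14 genes of heme export, breakdown and sensing, 13 were tested. Against IgG 6 rose and 1 fell, and against input 2 rose and 4 fell (limma), with medians of 0.25 and -0.08. Slc48a1, a carrier that moves heme out of lysosomes, rose 2.82-fold over IgG (limma adjusted p = 0.00208) and was 0.35 above input (limma adjusted p = 0.107). Its difference from input passed in the usual eBayes form (limma adjusted p = 0.0376). Blvrb, a biliverdin reductase abundant in red cells, fell by 1.26 against input (limma adjusted p = 0.0107) and differed by -0.02 from IgG (limma adjusted p = 0.918). Hebp1, a heme-binding protein, fell by 0.92 against input (limma adjusted p = 0.0186) and differed by 0.09 from IgG (limma adjusted p = 0.647). Blvrb and Hebp1 thus had the layout of Alad, with IP and IgG close together below input. Neither fall against input passed in the usual eBayes form (limma adjusted p = 0.0589 and 0.112).

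**Figure D4:**
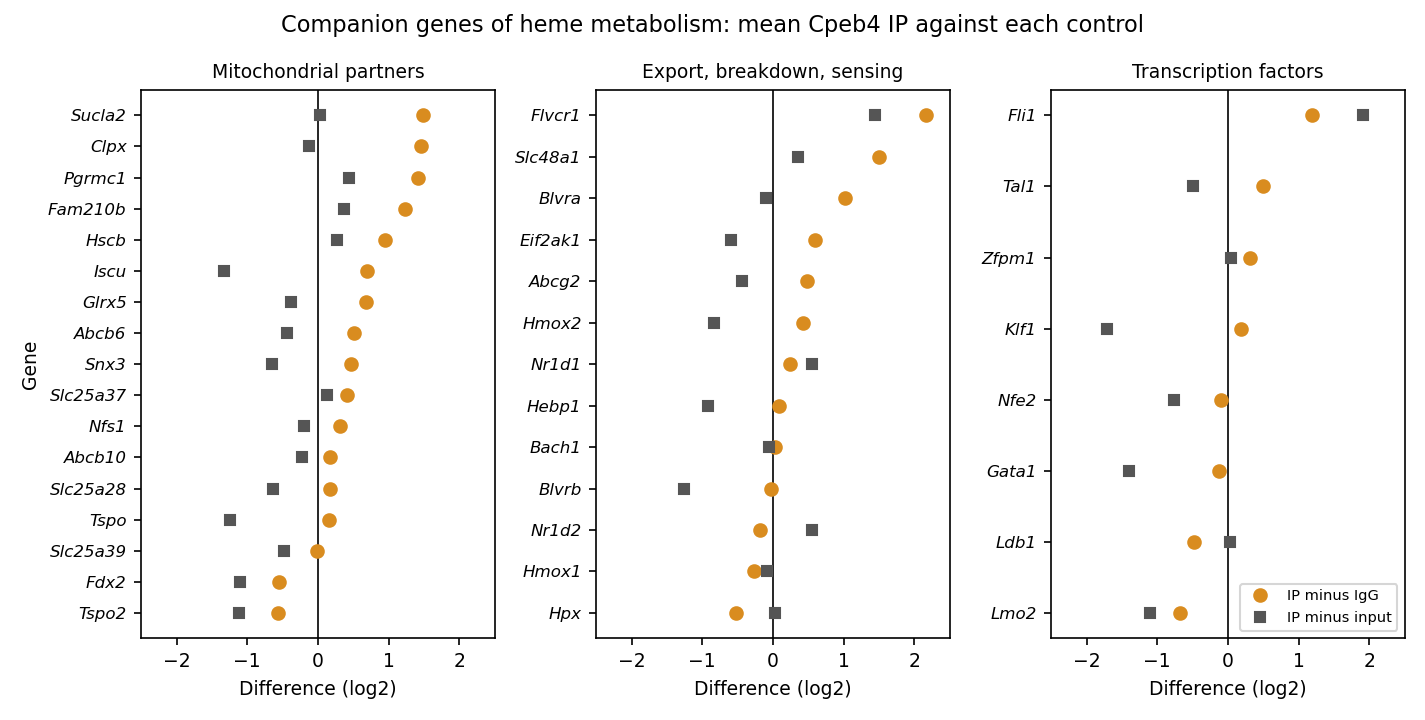
Mean log2 difference of the Cpeb4 IP from IgG (orange circles) and from input (grey squares) for the tested companion genes, ordered within each panel by the difference from IgG. Flvcr1 and Fli1 are among the genes to the right of 0 against both controls, and Lmo2, Tspo2 and Fdx2 among those to the left.

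Of 8 transcription factors known to act at erythroid genes, 2 rose and 2 fell against IgG, and 1 rose and 4 fell against input (limma). Their medians were 0.05 and -0.63. Fli1, a factor of megakaryocytes, had 6.73 in input, 7.45 in IgG, and 8.58 and 8.69 in the IP replicates. It rose by 1.19 against IgG and by 1.91 against input (limma adjusted p = 0.00347 and 0.00905), beside the megakaryocyte markers given above, and their part in it was not tested. Klf1, an erythroid activator of heme genes, fell by 1.71 against input (limma adjusted p = 0.00905) and differed by 0.18 from IgG (limma adjusted p = 0.254). Its difference from IgG passed in the usual eBayes form (limma adjusted p = 0.0373). Lmo2, a bridging protein of the Gata1 complex, fell by 0.68 against IgG and by 1.10 against input (limma adjusted p = 0.0247 and 0.0173), and passed in neither in the usual eBayes form (limma adjusted p = 0.154 and 0.136). Zfpm1, a partner of Gata1, was 0.31 above IgG and 0.04 above input and passed in neither (limma adjusted p = 0.0958 and 0.922).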

How the data were processed

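RNA from 2 Cpeb4 IP replicates, 1 IgG precipitate and 1 input sample was measured on Affymetrix arrays. The authors deposited 1 log2 expression value per probe set and array, made with RMA in the affy package per the submitters' processing notes. Their versions, settings, probe definition, filters and genome build are not given in the sources used here.

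Probe sets were named through GEO's platform annotation, which may be out of date. It gave 1 symbol to 23185 probe sets, several to 0 and none to 2021. Genes whose mean reached the 40th percentile of named genes were tested with limma 3.58.1 in R 4.3.3 (3 groups, 1 residual degree of freedom). In 3032 of the 13911 tested genes (21.8%) the IP values were equal within 1e-09. Such ties draw limma's usual prior SD down to 0.00621, so the prior was estimated from the other genes (SD 0.11, 3.07 degrees of freedom). On simulated data with ties, for IP against IgG over 13911 genes, this test wrongly called 18 of 13761 genes and found 45, 50 and 50 of 50 genes changed 2-, 4- and 8-fold. The usual eBayes wrongly called 1754 and found 14, 26 and 34. Whether control arrays vary like IP arrays was not simulated. The simulation gave all genes the same spread, changed few genes and tied values only between the IP arrays. Its error rates therefore need not hold for these data. Beside the test, genes at least 2-fold from a control in both IP replicates were counted. IgG and input were compared by size only.

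The members, lists and tests were chosen with earlier results of these data known. Named genes were all 9 members, per companion list the 2 highest and 2 lowest tested genes by the mean of both differences, and the 3 genes nearest to the member with the largest difference. Flvcr2 and Tmem14a were named after their values were seen, and the rescaled counts of heme genes beyond both controls at any size were added after seeing the data. Alternatives were usual eBayes, an intensity trend in the prior, a common spread of the IP arrays in 20 bins of level with a normal distribution, filters at no level and at the 60th percentile, a repeated quantile normalization, centring on array medians, an adjusted p below 0.1, 1.5- and 4-fold thresholds, and leaving out each IP replicate. The number of arrays limits the precision.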

Additional observations from a re-analysis of the deposited data

How the results depend on the processing

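The fall of Ppox against both controls kept its direction and passed in every alternative with a test (limma adjusted p up to 0.0151 against IgG and 0.036 against input). The 2-fold rule gave the same counts without either IP replicate, with 1 lower than IgG and than both controls, 4 lower than input and 0 higher. Other counts changed as follows. In the usual eBayes form 0 heme genes rose over IgG in place of 2, and 2 fell against input in place of 5, a number that was 4 after quantile normalization again. With a common spread, 2 fell against IgG in place of 1, and 1 rose over input in place of 0, as it did with an intensity trend. After quantile normalization again 2 fell against IgG, 1 was 2-fold lower in IgG than in input in place of 3, and the list's median was -0.10 against IgG and -1.01 against input. After median centring 4 rose over IgG, 1 was 2-fold higher than IgG, 5 were 2-fold lower in IgG than in input, and the medians were 0.28 and -0.97. Centring moved the median difference of all tested genes from IgG from 0.08 to 0.41, and the upward share of calls from 63.1% to 80.2%. That share was 51.5% after quantile normalization again, 46.7% with no filter and 80.8% with the 60th percentile filter. The sign against IgG changed for 5 genes under centring, Alas2 (0.26), Alad (0.28), Uros (0.17), Urod (0.11) and Fech (0.30), of which Alad and Fech passed, and for Slc25a38 (-0.60) under quantile normalization again. At 1.5-fold, 1 was above IgG, 5 were below input and 5 were lower in IgG than in input. At 4-fold, 0 were below IgG, input or both controls, and 0 in IgG against input. Leaving out an IP replicate gave medians of -0.034 to -0.014 against IgG. In each of these settings the cause was not tested. No paired analysis was possible because the controls are single arrays with no replicate number. Without an IP replicate there is no residual degree of freedom, so no test was made.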
